A study of Mus musculus with 12 samples.

Results

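The genes described here build cholesterol or sense, move and store it. They are the 31 genes of a list given by symbol, and all 31 were found among the 15002 genes of the tables. They comprise 8 enzymes of the mevalonate and isoprenoid steps, 3 enzymes of squalene and lanosterol synthesis, 8 enzymes after lanosterol, 5 regulators of sterol sensing (the factors Srebf1 and Srebf2 with Scap, Insig1 and Insig2) and 7 genes of sterol transport, efflux and storage. RNA was sequenced from IEC4.1 cells, a line from the intestine of newborn mice that the labels call wild type and intestinal epithelial. One set of cells received a scrambled siRNA (siR_Ctrl), and a second set received siR_Nostrill, a pool of 3 siRNAs at 40 nM each that targets the long noncoding RNA Nostrill. Either set was left untreated or was given IFN-γ, which made 4 groups of 3 libraries that all carry the transfection. The time label reads 24 h throughout, whereas the study describes IFN-γ at 1 ng/ml for 4 h following a transfection of 24 h. Every library came from 1 cell line, and p-values measure the spread between the triplicates. The tables hold mRNA genes, so the knockdown of Nostrill was not analysed here. In bulk RNA, fewer cells that express a gene and less of its RNA per cell cannot be told apart.

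Cells make cholesterol from acetyl-CoA through mevalonate, farnesyl diphosphate, squalene and lanosterol. Most enzymes of this route are transcribed together under the sterol regulatory element-binding proteins encoded by Srebf1 and Srebf2. When membrane sterol is low, Scap escorts these factors from the endoplasmic reticulum to the Golgi for cleavage, and Insig1 and Insig2 hold the complex back when sterol is plentiful. Branches of the route supply isoprenoids for protein prenylation. In macrophages interferons are known to alter sterol synthesis and to induce Ch25h, a cholesterol hydroxylase. Whether the same genes moved with IFN-γ or with siR_Nostrill in IEC4.1 cells is the question that these comparisons address.

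Promoter sequence is shown for 4 synthesis enzymes whose values are described below. Whether the letters marked in these stretches bear on the levels of the genes was not tested. Each line gives the 150 bases before the annotated start from RefSeq (GRCm38.p6), 5′ to 3′ on the strand of the gene, at chr13:119690201-119690350 (plus strand) for Hmgcs1, chr13:8885456-8885605 (plus) for Idi1, chr5:4104698-4104847 (minus) for Cyp51 and chr8:64733579-64733728 (minus) for Msmo1. Capitals mark matches on either strand to the core of a sterol regulatory element (TCACNCCAC), to the CCAAT box (CCAAT) or to the GC box (GGGCGG).
Hmgcs1: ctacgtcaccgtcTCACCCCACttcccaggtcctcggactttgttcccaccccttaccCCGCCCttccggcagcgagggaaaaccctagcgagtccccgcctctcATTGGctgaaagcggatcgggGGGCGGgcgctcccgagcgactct
Idi1: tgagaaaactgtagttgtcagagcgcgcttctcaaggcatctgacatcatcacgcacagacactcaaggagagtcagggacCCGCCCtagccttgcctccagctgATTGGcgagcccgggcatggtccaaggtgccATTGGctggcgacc
Cyp51: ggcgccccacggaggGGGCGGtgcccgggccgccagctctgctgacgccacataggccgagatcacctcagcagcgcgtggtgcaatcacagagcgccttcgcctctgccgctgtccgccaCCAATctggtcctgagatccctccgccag
Msmo1: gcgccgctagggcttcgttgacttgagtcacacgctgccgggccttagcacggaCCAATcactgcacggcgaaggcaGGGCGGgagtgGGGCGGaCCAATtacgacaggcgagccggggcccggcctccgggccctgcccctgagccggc
The Hmgcs1 stretch held 1 match to the sterol element core, 1 CCAAT box and 2 GC boxes. The Msmo1 stretch held 2 CCAAT boxes and 2 GC boxes, and that of Idi1 held 2 CCAAT boxes and 1 GC box. That of Cyp51 held 1 CCAAT box and 1 GC box, and only the Hmgcs1 stretch held the sterol element core.

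RefSeq promoters of 300 bases (250 before to 50 after the start) were found for 25 of the 31 genes. No promoter entry was found for Fdps, Fdft1, Sqle, Stard4, Npc1 and Abcg1, so the counts leave these genes out. CCAAT occurred on either strand in 21 of these 25 genes and in 15 of 16 enzymes, against 43.8% of 9437 tested genes with a promoter entry and 37.4% of all 32851 promoters. GGGCGG occurred in 22 of 25, against 69.9% of tested genes and 35.7% of all promoters. TCACNCCAC occurred in 1 of 25, in Hmgcs1, against 1.34% of tested genes and 1.24% of all promoters. The E-box CACGTG, which sterol regulatory element-binding proteins can also bind, occurred in 6 of 25 (Hsd17b7, Sc5d, Dhcr7, Scap, Insig1 and Abca1), against 11.8% of tested genes and 7.15% of all promoters. TTCNNNGAA, the letters of an interferon-γ-activated site, occurred in Ggps1 and Ebp, 2 of 25, against 8.32% of tested genes and 8.3% of all promoters. Overlapping matches were counted, and a match describes letters and not binding.

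The libraries held between 17824306 and 19093204 reads on genes. IFN-γ acted in both sets, with Irf1, an interferon-induced transcription factor, between 47 and 59.8 FPKM in the untreated libraries and between 535 and 594 FPKM in the treated ones. The epithelial label was not matched by the markers listed. Krt8 reached 0.28 FPKM at most, Krt18 0.1 and Vil1 0.07, Krt19 lay between 0.91 and 2.76, and Epcam, Cdh1 and Cldn7 were not analysed here. Vim lay between 1536 and 2056 FPKM and Col1a1 between 176 and 315, so the cells are called IEC4.1 cells below. Libraries of one group also differed by gene length. Across 11390 genes that share a library, Spearman's correlation of a gene's deviation from its group mean with its length ran from -0.778 to 0.805 among the 12 libraries, and siR_Ctrl replicate 1 stood farthest out, with long genes high and short genes low. Fdps, Pmvk, Mvk and Mvd are short members, with effective lengths of 1031, 952.2, 1478 and 1525 nt against a median of 2604 nt over tested genes. Counts of the 30 tested genes and of the further lists are therefore also given with this trend removed from every library.

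The sterol genes covered a wide range of levels, given here as FPKM, which is scaled for length and reads. Its total over all genes still differed among libraries. Divided by the total of TPM, it ran from 0.571 (siR_Ctrl replicate 1) to 0.795 (siR_Ctrl + IFN-γ replicate 2). Fdps, the farnesyl diphosphate synthase, was the highest, with a mean of 305 FPKM over 12 libraries, the 97.8th percentile of all genes. Acat2, the cytosolic acetoacetyl-CoA thiolase, followed at 144 FPKM and Srebf2 at 118 FPKM. Of the other mevalonate and isoprenoid enzymes, Pmvk averaged 85.2 FPKM, Hmgcs1 69.7, Idi1 58.8, Mvd 36.9, Mvk 36.1 and Ggps1, the geranylgeranyl diphosphate synthase, 5.35. The squalene and lanosterol enzymes Sqle, Fdft1 and Lss averaged 94, 50.8 and 17.7 FPKM. Among the later enzymes, Msmo1 averaged 101 FPKM, Ebp 65.6, Sc5d 40.9, Nsdhl 36.6, Cyp51 30.6, Dhcr7 22.1, Hsd17b7 6.54 and Tm7sf2 4.71. The route was thus measured at every listed step, with its lowest levels at Tm7sf2, Ggps1 and Hsd17b7.

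Of the regulators, Insig1 averaged 41.2 FPKM, Insig2 33.7, Scap 25.3 and Srebf1 20.8. For transport and storage, Npc2, which carries cholesterol inside lysosomes, averaged 64 FPKM, Soat1, the sterol O-acyltransferase that makes cholesteryl esters, 25.4, Stard4, a sterol transfer protein, 13.7 and Npc1, the partner of Npc2, 4.51. The efflux transporters were low, Abca1 at 0.657 FPKM and Abcg1 at 0.387. Abcg1 measured 0.42, 0.38 and 0.41 FPKM in siR_Ctrl, 0.43, 0.35 and 0.45 in siR_Ctrl + IFN-γ, 0.32, 0.26 and 0.39 in siR_Nostrill and 0.46, 0.4 and 0.37 with both, from 26 to 47 reads each. Every pair of groups overlapped, and the log2 fold changes were 0.09 ± 0.16 with IFN-γ in siR_Ctrl cells (adjusted p = 0.842), 0.33 ± 0.16 in siR_Nostrill cells (adjusted p = 0.3), -0.29 ± 0.16 with siR_Nostrill without IFN-γ (adjusted p = 0.416) and -0.06 ± 0.16 with IFN-γ (adjusted p = 0.91). Ch25h was the lowest, with 9 reads in all 12 libraries together. These were 1, 1 and 0 reads in siR_Ctrl, 1, 0 and 0 in siR_Ctrl + IFN-γ, 0, 0 and 1 in siR_Nostrill and 1, 1 and 3 in siR_Nostrill + IFN-γ. It did not pass the filter on low counts, so 30 of the 31 genes were tested.

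The summed level of the synthesis enzymes was lowest in the siR_Ctrl cells without IFN-γ. Single enzymes differed, since the lowest group mean was that of siR_Nostrill for Ggps1 (4.71 FPKM against 5.41 in siR_Ctrl) and Hsd17b7 (5.57 against 6.3), and Lss had 15.5 FPKM in both of these groups. For Lss, counts and FPKM differed, and the edgeR fit on counts put siR_Nostrill above siR_Ctrl by a log2 fold change of 0.28 ± 0.18. The sum over the 19 enzymes was 799.4, 891.2 and 1038 FPKM in the siR_Ctrl libraries and 1086, 1325 and 1388 FPKM in siR_Ctrl + IFN-γ. It was 1398, 1386 and 1287 FPKM in siR_Nostrill and 1169, 1323 and 1442 FPKM in siR_Nostrill + IFN-γ. Every siR_Ctrl library thus lay below the lowest library of the other groups, which overlapped one another. Fdps is the largest part of this sum. The total FPKM of all genes, relative to TPM, was also lowest in siR_Ctrl replicate 1 (0.571), and was 0.735 and 0.693 in siR_Ctrl replicates 2 and 3. On a scale that gives each enzyme the same weight (log2 CPM minus the mean of the gene over 12 libraries), the median enzyme stood at -0.57, -0.39 and -0.23 in siR_Ctrl, at -0.10, 0.09 and 0.14 in siR_Ctrl + IFN-γ, at 0.19, 0.01 and 0.10 in siR_Nostrill and at 0.05, 0.19 and 0.27 in siR_Nostrill + IFN-γ. All 19 enzymes were below their own mean in siR_Ctrl replicates 2 and 3, and 17 of 19 were in replicate 1. Removing the length trend put the siR_Ctrl libraries at -0.45, -0.44 and -0.23, with replicate 1 beside replicate 2.

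**Figure D1:**
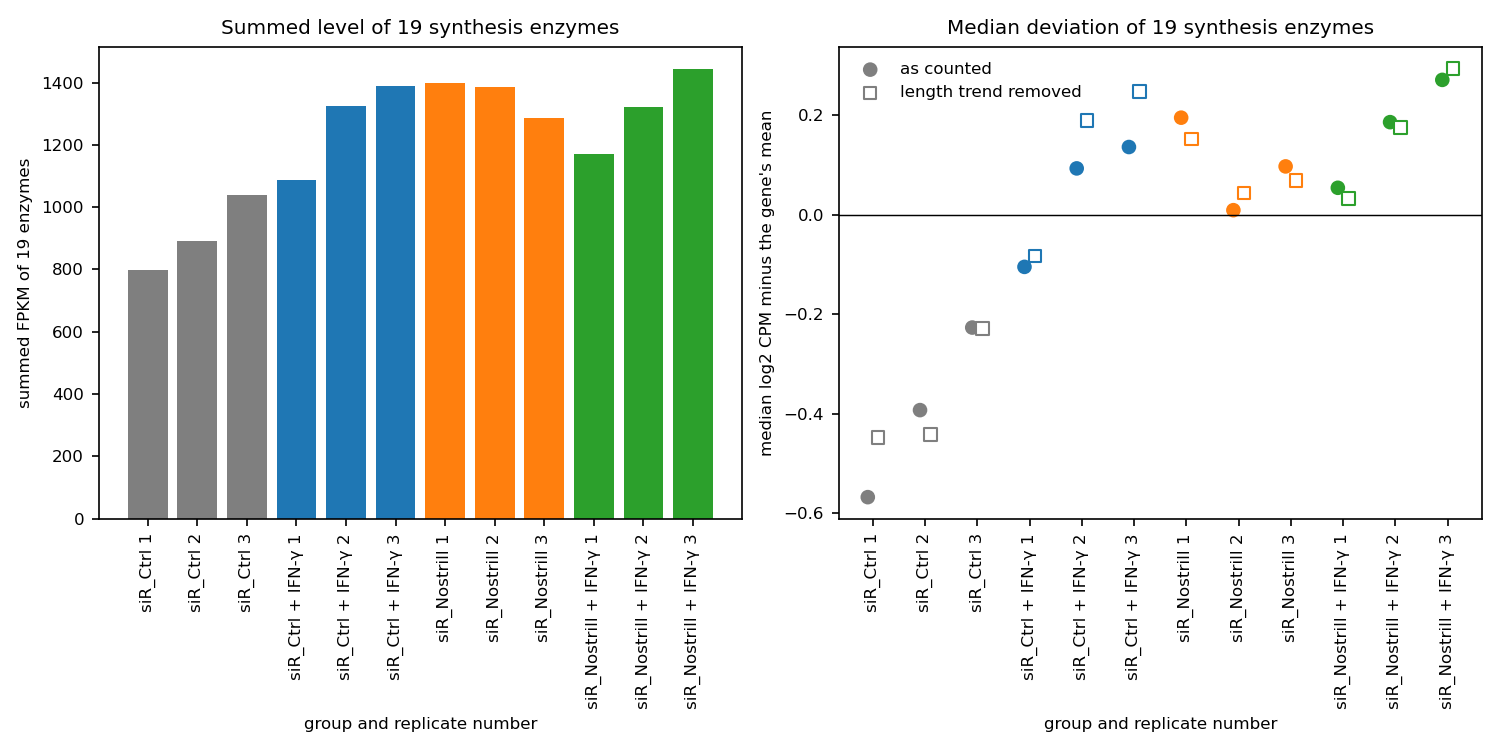
Left, FPKM summed over the 19 synthesis enzymes in each of 12 libraries (bars, coloured by group). Right, the median over the same enzymes of log2 CPM minus the gene's mean, as counted (filled circles) and with the length trend removed (open squares). The 3 siR_Ctrl libraries sit lowest in both panels, at 799.4 to 1038 FPKM on the left.

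Gene by gene, the 3 siR_Ctrl libraries lay below all of the other 9 for 9 of 30 genes on log2 CPM, namely Acat2, Hmgcs1, Idi1, Fdft1, Sqle, Lss, Cyp51, Msmo1 and Nsdhl. Over all tested genes this held for 1.98%. Without the length trend it held for 14 of 30, which gained Mvk, Mvd, Fdps, Sc5d, Srebf2 and Stard4 and lost Lss, against 2.97% of all tested genes. Of these, Srebf2 encodes a transcription factor and Stard4 a transfer protein, and the others encode enzymes. This ordering is a description of the same libraries that enter the tests below.

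**Figure D2:**
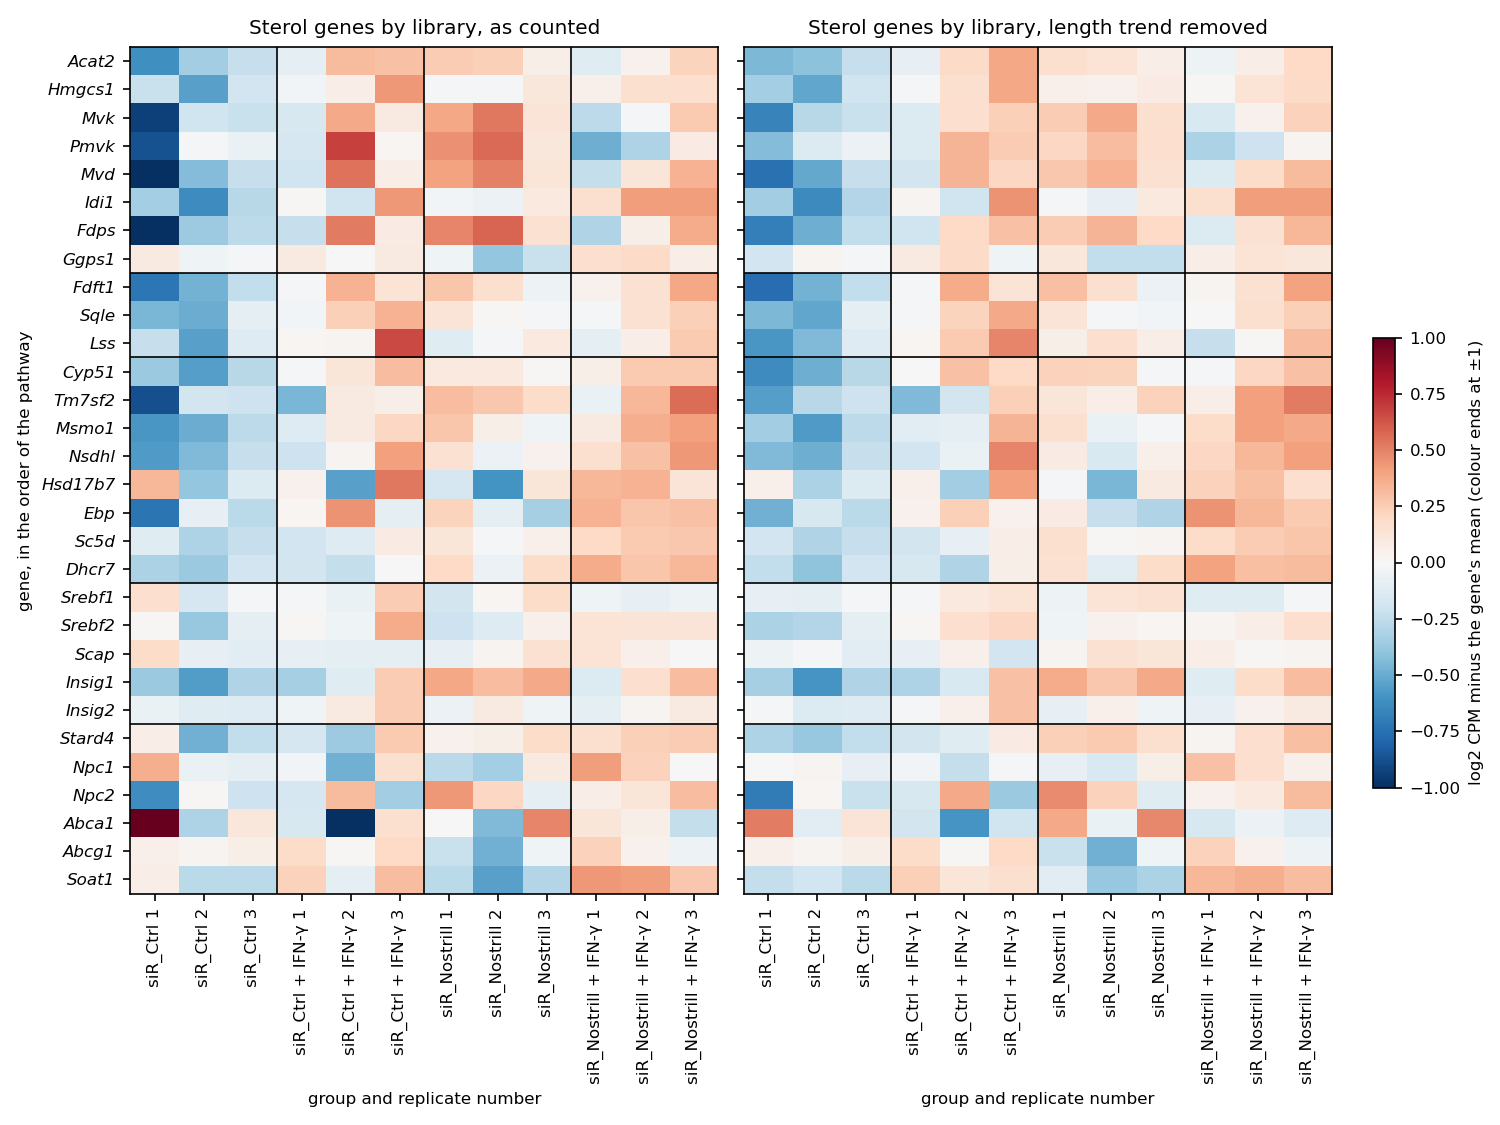
Log2 CPM of 30 sterol genes (rows, in pathway order, with lines between the 5 roles) in 12 libraries (columns), each minus the gene's mean. Blue is lower and red is higher, and colours end at 1 log2 unit. Left, as counted. Right, with the length trend removed. The blue block over the 3 siR_Ctrl columns spans most enzymes, and Abca1 runs against it in siR_Ctrl replicate 1.

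IFN-γ in siR_Ctrl cells went with higher synthesis enzymes. Fdft1, Sqle, Cyp51, Msmo1 and Acat2 rose (adjusted p under 0.05), 5 of the 30 genes tested, and none fell, while 4.71% of all tested genes were called higher in this comparison. All 19 enzymes had a log2 fold change above 0, between 0.04 (Ggps1) and 0.69 (Mvd), with a median of 0.51 against -0.01 over all genes. An unadjusted p under 0.05 was reached by 16 of 30 genes, all higher, against 14.6% of all genes in either direction. With the length trend removed 15 of 30 were called, all higher, against 11.1% of all genes. DESeq2 called 8 (6.33% of all genes in either direction) and limma on log2(FPKM + 1) called 3 (4.73%). In an edgeR fit of only the 6 libraries compared none of 30 was called, with adjusted p-values of 0.0917 for Cyp51, 0.13 for Fdft1 and 0.182 for Acat2, against 2.91% of all genes, and 11 of 30 had an unadjusted p under 0.05, against 10.1%.

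Cyp51, the lanosterol demethylase (chr5:4080674-4104697), measured 24.5, 20.1 and 25.3 FPKM in siR_Ctrl, 29.8, 29.6 and 38.1 in siR_Ctrl + IFN-γ, 31.6, 31.4 and 31.7 in siR_Nostrill and 32.3, 36.8 and 36 in siR_Nostrill + IFN-γ. The siR_Ctrl libraries were below every other library. Its log2 fold change with IFN-γ in siR_Ctrl cells was 0.55 ± 0.10 (SE, adjusted p = 0.00709), and the call held in each of 12 fits that left out 1 library. Fdft1, the squalene synthase (chr14:63145150-63181687), measured 31.9, 35.2 and 43 FPKM in siR_Ctrl, 48.6, 57.8 and 55.2 with IFN-γ, 59.8, 54.3 and 50.2 in siR_Nostrill and 52.4, 56.5 and 65.1 with both. Again no siR_Ctrl library reached the lowest of the others, and the log2 fold change with IFN-γ in siR_Ctrl cells was 0.63 ± 0.15 (adjusted p = 0.0275), called in 8 of 12 such fits. The gene span of Fdft1 shares 774 bases with Ctsb, and the sources used here do not say whether reads were counted by strand.

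Sqle, the squalene epoxidase (chr15:59315092-59331193), measured 71.1, 63.8 and 89.4 FPKM in siR_Ctrl, 90.2, 99 and 120 with IFN-γ, 99.6, 90.8 and 95.4 in siR_Nostrill and 94.4, 105 and 109 with both. The gap between siR_Ctrl replicate 3 and the lowest IFN-γ library was small. Its log2 fold change was 0.53 ± 0.13 (adjusted p = 0.0376, called in 3 of 12 fits). Msmo1, the C4-methyl sterol oxidase (chr8:64718123-64733578), measured 70.3, 68.2 and 84.4 FPKM in siR_Ctrl, 90.5, 94.9 and 117 with IFN-γ, 117, 101 and 101 in siR_Nostrill and 108, 129 and 130 with both. The groups did not overlap between siR_Ctrl and the rest, and its log2 fold change was 0.51 ± 0.13 (adjusted p = 0.0452, called in 4 of 12 fits).

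Acat2 (chr17:12943042-12960725), at the entry of the route, measured 98, 108 and 123 FPKM in siR_Ctrl, 131, 160 and 177 with IFN-γ, 164, 163 and 154 in siR_Nostrill and 134, 148 and 163 with both. Its siR_Ctrl libraries were the lowest, and the log2 fold change with IFN-γ in siR_Ctrl cells was 0.57 ± 0.14 (adjusted p = 0.0346, called in 5 of 12 fits). Hmgcs1, the hydroxymethylglutaryl-CoA synthase, was just short of the threshold at 0.48 ± 0.13 (adjusted p = 0.0519). The short members had larger errors, with Fdps at 0.68 ± 0.25 (adjusted p = 0.199), Mvd at 0.69 ± 0.23 (adjusted p = 0.158), Mvk at 0.54 ± 0.21 (adjusted p = 0.245) and Pmvk at 0.495 ± 0.266 (adjusted p = 0.453). After removal of the length trend Fdps was at 0.57 (adjusted p = 0.0132), Mvd at 0.62 (adjusted p = 0.0143) and Mvk at 0.48 (adjusted p = 0.0272). Pmvk was at 0.365 (adjusted p = 0.082) and was not called in that fit.

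Outside the enzymes, none of 11 regulators and transport genes tested was called with IFN-γ in siR_Ctrl cells by edgeR, DESeq2 or limma. An unadjusted p under 0.05 was reached by 3 of them, Insig1, Insig2 and Soat1, at 0.37 ± 0.15, 0.21 ± 0.09 and 0.31 ± 0.13, against 14.6% of all tested genes. In the fit without the length trend, Srebf2 was called at 0.36 (adjusted p = 0.00407) and Soat1 at 0.40 (adjusted p = 0.00104). Abca1 had the lowest log2 fold change at -0.76 ± 0.40 (adjusted p = 0.442), and siR_Ctrl replicate 1 alone was at 1.5 FPKM where the other 11 libraries lay between 0.27 and 0.89. The number called fell from 5 to 1 without siR_Ctrl replicate 1, siR_Ctrl replicate 2 or siR_Ctrl + IFN-γ replicate 3. It was 2 without siR_Ctrl + IFN-γ replicate 2, siR_Nostrill replicate 2 or siR_Nostrill + IFN-γ replicate 2, and 3 without siR_Nostrill replicate 1, siR_Nostrill replicate 3 or siR_Nostrill + IFN-γ replicate 3.

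**Figure D3:**
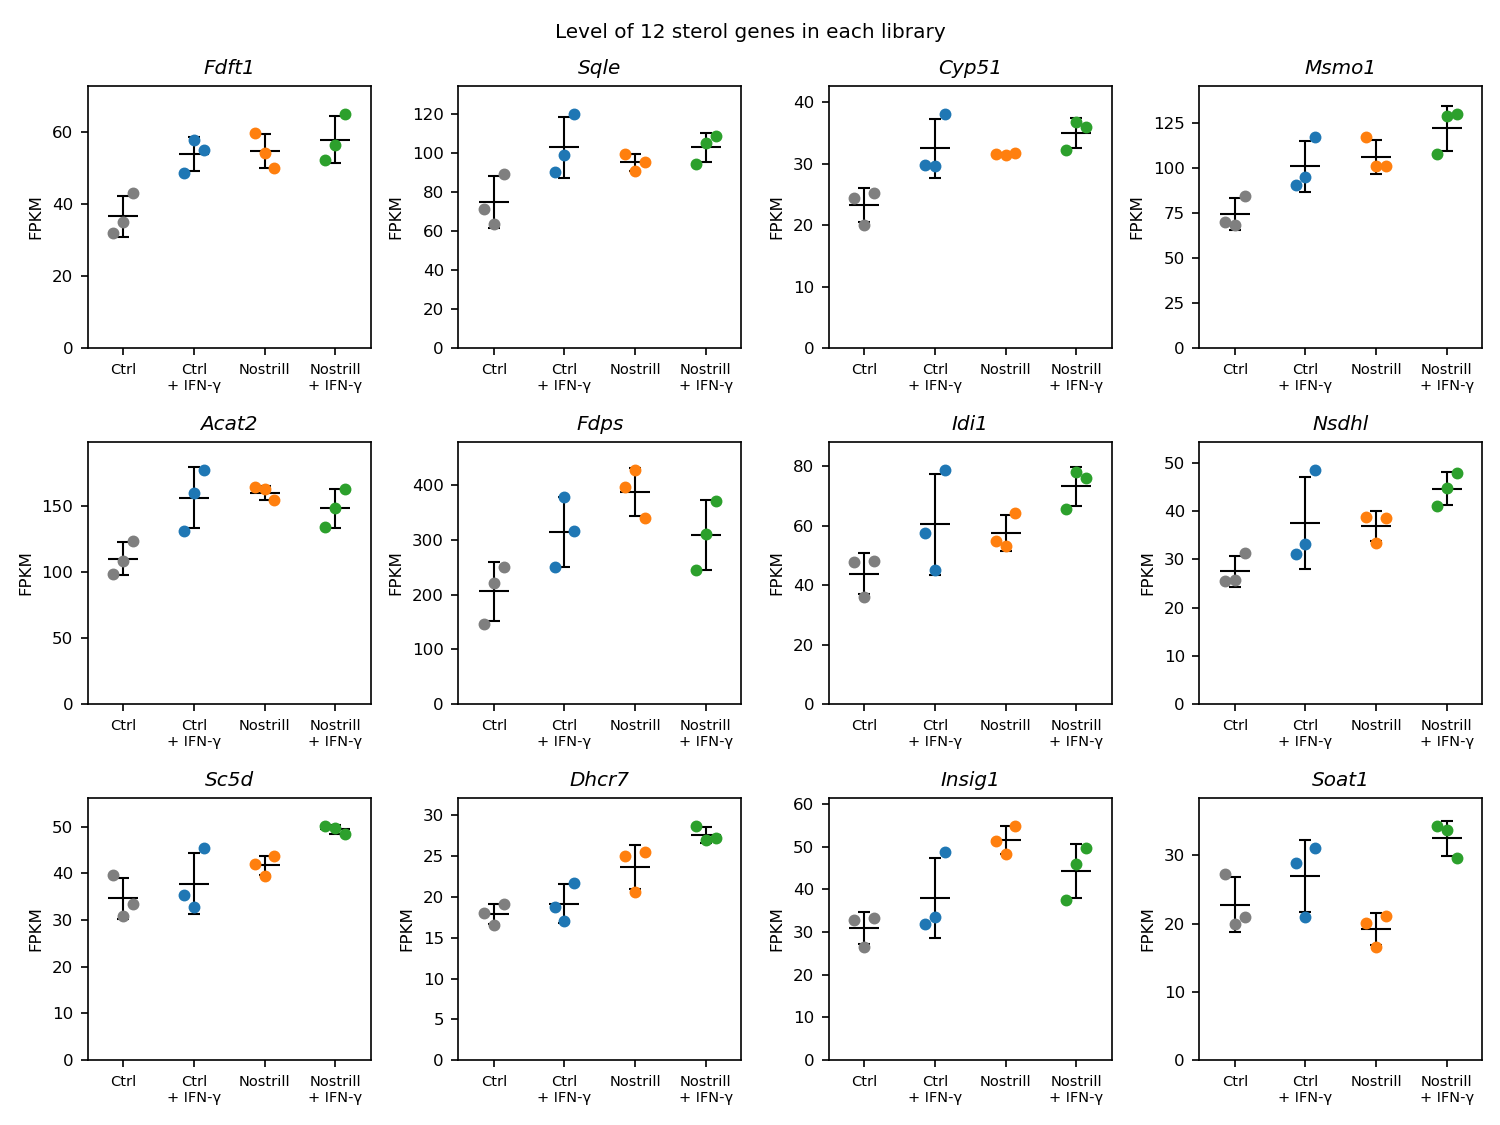
FPKM of 12 sterol genes in each library (points, coloured by group), with the group mean and SD of 3 libraries (black bars). Axes start at 0. Cyp51 lies between 20.1 and 25.3 FPKM in siR_Ctrl and between 29.6 and 38.1 elsewhere, while Soat1 is highest in siR_Nostrill + IFN-γ.

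In siR_Nostrill cells the one call by edgeR with IFN-γ was a storage gene. Soat1 rose, 1 of 30 genes, against 5.24% of all tested genes called higher. The 19 enzymes had a median log2 fold change of 0.10, from -0.61 (Pmvk) to 0.46 (Hsd17b7), with 14 above 0 and 5 below, against -0.00 over all genes. Unadjusted, 4 of 30 passed p under 0.05, against 21.9% of all genes. In the fit without the length trend Soat1 and Ebp were called higher and Pmvk lower, 3 of 30 against 19.0%. DESeq2 called Soat1 and Ggps1 (10.5% of all genes) and limma called Soat1 (7.96%). The edgeR fit of only the 6 libraries compared called Soat1, Ggps1 and Idi1 higher and Pmvk lower, 4 of 30 against 17.0%.

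Soat1 (chr1:156428108-156474328) measured 27.3, 20 and 21 FPKM in siR_Ctrl, 28.9, 21 and 31.1 in siR_Ctrl + IFN-γ, 20.1, 16.6 and 21.1 in siR_Nostrill and 34.3, 33.7 and 29.6 in siR_Nostrill + IFN-γ. The siR_Nostrill groups with and without IFN-γ did not overlap, while the siR_Ctrl groups did. Its log2 fold change with IFN-γ was 0.74 ± 0.13 in siR_Nostrill cells (adjusted p = 0.00412, called in each of 12 fits) and 0.31 ± 0.13 in siR_Ctrl cells (adjusted p = 0.278). The difference of the 2 effects was 0.43 ± 0.18 (adjusted p = 0.43) and did not pass the test.

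Ggps1 and Pmvk followed Soat1 by p-value. Ggps1 measured 5.95, 5.02 and 5.26 FPKM in siR_Ctrl, 5.63, 4.91 and 5.56 with IFN-γ, 5.32, 4.05 and 4.75 in siR_Nostrill and 6.16, 5.99 and 5.62 with both. Its mean was highest with both, and those libraries overlapped siR_Ctrl and siR_Ctrl + IFN-γ. The log2 fold change of Ggps1 over siR_Nostrill was 0.36 ± 0.10 (adjusted p = 0.0522). Ggps1 was called by DESeq2 (adjusted p = 0.0158) and in the fit of only the libraries compared (adjusted p = 0.049). It was not called by limma, at 0.284, or with the length trend removed, at 0.230 (adjusted p = 0.132). Pmvk, the phosphomevalonate kinase, measured 48.1, 79.5 and 80.3 FPKM in siR_Ctrl, 73.7, 119 and 85.9 with IFN-γ, 109, 119 and 93.4 in siR_Nostrill and 60.6, 67.6 and 85.8 with both. Its siR_Nostrill libraries lay above those with both, with a log2 fold change of -0.61 ± 0.27 (adjusted p = 0.212), or an adjusted p of 0.0308 in the fit of only the libraries compared. Pmvk is the shortest gene of the set with a recovered length, and without the length trend the value was -0.39 (adjusted p = 0.0438). The number called was 2 without siR_Ctrl replicate 1 or siR_Nostrill replicate 1.

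**Figure D4:**
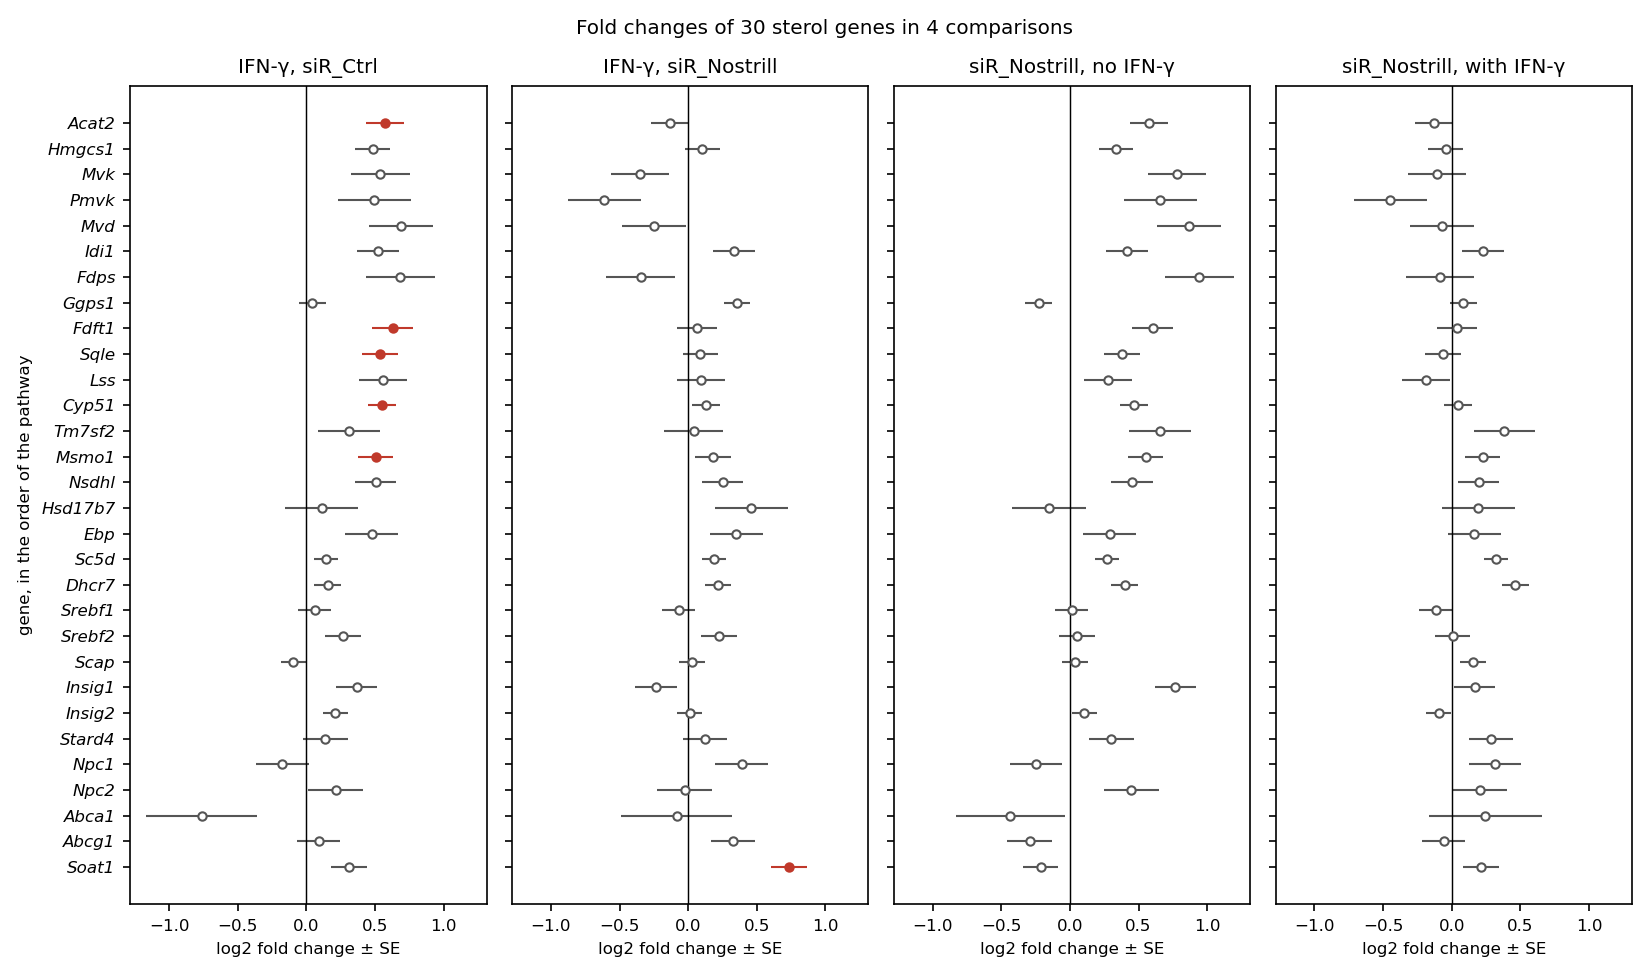
Log2 fold change ± SE of 30 sterol genes (rows, in pathway order) in 4 comparisons (columns) from the edgeR fit of 12 libraries. Filled red points passed an adjusted p of 0.05 and open points did not. The 5 red points for IFN-γ in siR_Ctrl cells are all enzymes, the one in siR_Nostrill cells is Soat1, and the first column and that for siR_Nostrill without IFN-γ share the siR_Ctrl libraries.

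Most enzymes had higher values with siR_Nostrill than with siR_Ctrl when IFN-γ was absent, though no single gene passed. None of 30 was called by edgeR, against 0.218% of all tested genes, and none by limma on log2(FPKM + 1), against 0.180%. DESeq2 called 9 (Acat2, Mvk, Mvd, Fdps, Fdft1, Cyp51, Msmo1, Dhcr7 and Insig1), all higher, against 2.56% of all genes. Unadjusted, 18 of 30 passed p under 0.05 in edgeR, 17 higher and 1 lower (Ggps1), against 13.8% of all genes. Without the length trend 10 of 30 were called, all higher, against 3.46%. The 10 were Fdps, Acat2, Cyp51, Fdft1, Stard4, Mvk, Mvd, Hmgcs1, Insig1 and Sc5d.

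Of the 19 enzymes 17 had a log2 fold change above 0 with siR_Nostrill, with a median of 0.45 against 0.01 over all genes. Fdps had the largest as counted and measured 147, 221 and 250 FPKM in siR_Ctrl, 251, 378 and 316 in siR_Ctrl + IFN-γ, 397, 428 and 340 in siR_Nostrill and 245, 311 and 372 in siR_Nostrill + IFN-γ. The siR_Nostrill libraries were above all 3 siR_Ctrl libraries, with a log2 fold change of 0.94 ± 0.25 (adjusted p = 0.185), or 0.729 without the length trend (adjusted p = 0.01). In the fit without that trend Mvd was slightly higher, at 0.736 (adjusted p = 0.0161). Cyp51 was at 0.47 ± 0.10 (adjusted p = 0.132) and Msmo1 at 0.55 ± 0.13 (adjusted p = 0.15).

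Insig1, itself a target of the sterol regulatory element-binding proteins, had the smallest p-value of the set without IFN-γ. It measured 32.9, 26.5 and 33.3 FPKM in siR_Ctrl, 31.9, 33.4 and 48.8 in siR_Ctrl + IFN-γ, 51.3, 48.3 and 54.8 in siR_Nostrill and 37.4, 46 and 49.6 in siR_Nostrill + IFN-γ. The siR_Nostrill libraries exceeded the siR_Ctrl libraries without overlap, with a log2 fold change of 0.77 ± 0.15 (adjusted p = 0.0877). Of the other regulators Insig2 was at 0.10 ± 0.09, Srebf2 at 0.05 ± 0.13, Scap at 0.04 ± 0.09 and Srebf1 at 0.01 ± 0.12. In the fit without the length trend Insig2 was at 0.072 (adjusted p = 0.654), Srebf2 at 0.235 (adjusted p = 0.0964), Scap at 0.165 (adjusted p = 0.189) and Srebf1 at 0.149 (adjusted p = 0.247). The number called was 1 without siR_Ctrl + IFN-γ replicate 3. This comparison, IFN-γ in siR_Ctrl cells and the interaction all use the same 3 siR_Ctrl libraries, so a low value there enters each of them.

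In the presence of IFN-γ, the smallest p-values for siR_Nostrill against siR_Ctrl belonged to the final enzymes Dhcr7 and Sc5d, short of the threshold. None of 30 was called by edgeR, against 0.429% of all tested genes, while DESeq2 called Sc5d and Dhcr7 (5.46% of all genes) and limma called Dhcr7 (1.22%). At an unadjusted p under 0.05, 2 of 30 passed, against 14.5%. With the length trend removed Dhcr7 and Sc5d were called higher, 2 of 30 against 13.0%. The 19 enzymes split into 11 above and 8 below 0, with a median log2 fold change of 0.05, from -0.45 (Pmvk) to 0.46 (Dhcr7).

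Dhcr7, which makes cholesterol from its dehydro precursor (chr7:143823167-143848410), measured 18, 16.6 and 19.1 FPKM in siR_Ctrl, 18.8, 17 and 21.7 in siR_Ctrl + IFN-γ, 25, 20.6 and 25.5 in siR_Nostrill and 28.7, 27 and 27.2 in siR_Nostrill + IFN-γ. The libraries with both treatments were above all others. With IFN-γ the log2 fold change by siR_Nostrill was 0.46 ± 0.10 (adjusted p = 0.0651), and without IFN-γ it was 0.40 ± 0.10 (adjusted p = 0.158). Sc5d, the lathosterol oxidase one step earlier (chr9:42251592-42264300), measured 39.6, 30.9 and 33.4 FPKM in siR_Ctrl, 35.3, 32.8 and 45.3 with IFN-γ, 41.9, 39.5 and 43.6 in siR_Nostrill and 50.1, 49.6 and 48.4 with both. Here too the libraries with both stood highest, and the log2 fold change by siR_Nostrill was 0.32 ± 0.09 with IFN-γ (adjusted p = 0.118).

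Stard4 ranked next by p-value with IFN-γ and was not called. It measured 14.8, 9.4 and 11.5 FPKM in siR_Ctrl, 11.8, 9.44 and 16.4 with IFN-γ, 13.6, 13.6 and 16 in siR_Nostrill and 15.5, 16.2 and 15.9 with both. The ranges of siR_Ctrl + IFN-γ and of both treatments overlapped, and the log2 fold change was 0.29 ± 0.16 (adjusted p = 0.45).

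The effect of IFN-γ in siR_Nostrill cells minus that in siR_Ctrl cells, the interaction, was below 0 for 15 of 19 enzymes. No gene of the set was called by edgeR, DESeq2 or limma, and no gene at all was (0 of all tested genes in each). The median over the enzymes was -0.38 against 0.01 over all genes. At an unadjusted p under 0.05, 11 of 30 passed, 9 lower and 2 higher, against 10.7% of all genes. The fit without the length trend called none either, as for all genes (0). The smallest p-values belonged to Acat2 at -0.71 ± 0.20, Mvk, the mevalonate kinase, at -0.89 ± 0.30 and Pmvk at -1.10 ± 0.38, each with an adjusted p of 0.43. Mvk measured 19.5, 29.7 and 30.9 FPKM in siR_Ctrl, 31.3, 41.3 and 38.3 with IFN-γ, 45, 49.5 and 40.3 in siR_Nostrill and 30.2, 35.4 and 41.6 with both. Its libraries with either treatment lay above those of siR_Ctrl, and those with both overlapped siR_Ctrl.

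Averaged over both siRNAs, 4 enzymes and Soat1 were called higher with IFN-γ. Called were Idi1, Cyp51, Msmo1, Nsdhl and Soat1, 5 of 30, all higher, against 6.81% of all tested genes called higher. At an unadjusted p under 0.05, 15 of 30 passed, all higher, against 19.9%. Without the length trend 13 were called, 12 higher and Abca1 lower, against 20.0%. Averages use the siR_Ctrl libraries as well and are not independent of the comparisons above. By siRNA, the log2 fold changes were 0.55 in siR_Ctrl and 0.13 in siR_Nostrill cells for Cyp51, and 0.51 and 0.18 for Msmo1. They were 0.51 and 0.25 for Nsdhl, and 0.52 and 0.33 for Idi1. In siR_Nostrill cells the edgeR fit of 12 libraries called none of these enzymes, with adjusted p-values from 0.233 (Idi1) to 0.457 (Cyp51).

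Soat1 had an averaged log2 fold change of 0.52 ± 0.09 (adjusted p = 0.00266) and Cyp51 of 0.34 ± 0.07 (adjusted p = 0.0108), and both were called in each of 12 fits. Idi1, the isopentenyl diphosphate isomerase (chr13:8885606-8892396), measured 47.8, 36 and 48.1 FPKM in siR_Ctrl, 57.5, 45 and 78.7 with IFN-γ, 55, 53.3 and 64.3 in siR_Nostrill and 65.7, 78 and 76 with both. In FPKM, though not on log2 CPM, its siR_Ctrl + IFN-γ replicate 2 fell among the siR_Ctrl libraries, and the averaged log2 fold change was 0.43 ± 0.11 (adjusted p = 0.0288, called in 6 of 12 fits). Nsdhl, a dehydrogenase of C4 demethylation (chrX:72918521-72958528), measured 25.6, 25.8 and 31.3 FPKM in siR_Ctrl, 31, 33.1 and 48.5 with IFN-γ, 38.8, 33.4 and 38.6 in siR_Nostrill and 41.1, 44.8 and 47.9 with both. The siR_Ctrl and siR_Ctrl + IFN-γ groups overlapped in FPKM, though not on log2 CPM, and the averaged log2 fold change was 0.38 ± 0.11 (adjusted p = 0.0455, called in 2 of 12 fits). Msmo1 was at 0.34 ± 0.09 (adjusted p = 0.0363, called in 4 of 12 fits). The number called was 2 without siR_Ctrl replicate 2, siR_Nostrill replicate 2, siR_Nostrill + IFN-γ replicate 2 or siR_Nostrill + IFN-γ replicate 3. It was 3 without siR_Ctrl replicate 1, siR_Ctrl + IFN-γ replicate 2, siR_Ctrl + IFN-γ replicate 3 or siR_Nostrill replicate 3.

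Averaged over both states, the final enzymes Sc5d and Dhcr7 and the regulator Insig1 were called higher with siR_Nostrill. These were 3 of 30, all higher, against 1.16% of all tested genes called higher. Dhcr7 was at 0.43 ± 0.07 (adjusted p = 0.011, called in each of 12 fits), Insig1 at 0.47 ± 0.11 (adjusted p = 0.0486) and Sc5d at 0.30 ± 0.06 (adjusted p = 0.0368), the last pair in 2 of 12 fits each. By state, Insig1 was at 0.77 ± 0.15 without IFN-γ and at 0.17 ± 0.15 with it (adjusted p = 0.657). Its interaction was -0.60 ± 0.21 (adjusted p = 0.43). Dhcr7 was at 0.40 without and 0.46 with IFN-γ, and Sc5d at 0.27 and 0.32. At an unadjusted p under 0.05, 15 of 30 passed, all higher, against 16.5%. Without the length trend 12 were called, all higher, against 13.6%. All 7251 bases of the Insig1 gene span lie within that of an annotated long noncoding RNA, Gm35223. The number called was 1 without any single library of siR_Nostrill, without siR_Ctrl replicate 2 or 3, without siR_Ctrl + IFN-γ replicate 1 or 2, or without siR_Nostrill + IFN-γ replicate 2 or 3.

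The synthesis enzymes varied together from library to library. Over the 12 libraries the median Pearson correlation between pairs of the 19 enzymes was 0.64 on log2 CPM, and between pairs of 992 genes taken at every 12th place of the table it was -0.00. After each group's mean was taken out it was 0.49 for the enzymes and 0.00 for the other genes, so the enzymes also moved together among libraries of one group. Against the median of the enzymes, Msmo1 correlated at 0.97, Fdft1 at 0.93, Nsdhl at 0.93 and Cyp51 at 0.90, and Ggps1 at -0.01 and Hsd17b7 at 0.06. Outside the enzymes Insig1 was at 0.82, Npc2 at 0.68, Srebf2 at 0.44, Srebf1 at -0.12, Scap at -0.14 and Abca1 at -0.43. Without the length trend the median over pairs of enzymes was 0.70, and Srebf2 was at 0.94, Ggps1 at 0.30 and Hsd17b7 at 0.345. On that scale Srebf1 and Scap turned sign, to 0.40 and 0.22, and Abca1 stayed below 0, at -0.365. These points share a library, a depth and, for most of the enzymes, low values in siR_Ctrl.

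Other genes of the route were counted in the same comparisons. Among 14 further mevalonate, isoprenoid and acetyl-CoA genes 2 were called higher with IFN-γ in siR_Ctrl cells, against 4.71% of all tested genes, among them Aacs, the acetoacetyl-CoA synthetase, at 0.46 ± 0.10 (adjusted p = 0.0126). With IFN-γ in siR_Nostrill cells edgeR called none of the 14, DESeq2 and limma called 1 each, against 10.5% and 7.96% of all tested genes, and 3 had an unadjusted p under 0.05, against 21.9%. Nus1, a subunit of the enzyme that makes dolichol, was lower with siR_Nostrill without IFN-γ at -0.51 ± 0.06 (adjusted p = 0.0182) and with IFN-γ at -0.37 ± 0.06 (adjusted p = 0.0375), 1 of 14 in each, against 0.218% and 0.429% of all genes called in either direction. Its mean was 28.4 FPKM in siR_Ctrl, 25.5 in siR_Ctrl + IFN-γ, 19.5 in siR_Nostrill and 20.6 with both, opposite in direction to most enzymes of the set. Without the length trend 3 of the 14 were called higher with IFN-γ in siR_Ctrl cells (11.1% of all genes) and 1 higher and 2 lower in siR_Nostrill cells (19.0%). In that fit siR_Nostrill gave 3 higher and none lower without IFN-γ (3.46%), so Nus1 was not called lower there. With IFN-γ it gave 1 lower (13.0%). For siR_Nostrill against siR_Ctrl, limma called 1 of the 14 without IFN-γ (0.180%) and none with it (1.22%), so Nus1 was not called by limma with IFN-γ. DESeq2 called 2 (2.56%) and 1 (5.46%).

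Of 13 genes of SREBP processing and sterol-regulated degradation, edgeR and limma called none and DESeq2 1 with IFN-γ in siR_Ctrl cells (6.33% of all tested genes), where 2 had an unadjusted p under 0.05 (14.6%). With IFN-γ in siR_Nostrill cells 2 of the 13 were higher, against 5.24% of all genes. These were the ubiquitin ligases Rnf139 at 0.62 ± 0.10 (adjusted p = 0.00339) and Syvn1 at 0.35 ± 0.08 (adjusted p = 0.0217). Of 19 tested uptake and transport genes, Scarb2, a lysosomal membrane protein, was higher with IFN-γ in siR_Ctrl cells at 0.34 ± 0.07 (adjusted p = 0.0139) and in siR_Nostrill cells at 0.59 ± 0.07 (adjusted p = 2.05e-04). It was the 1 gene of 19 called higher by edgeR in each, near the 4.71% and 5.24% of all tested genes called higher. In siR_Ctrl cells limma called none of the 19 with IFN-γ, Scarb2 included, against 4.73% of all genes. DESeq2 called 3 there, against 6.33%. Osbpl2, an oxysterol-binding protein, was lower with IFN-γ in siR_Nostrill cells, at -0.37 ± 0.10 (adjusted p = 0.0405). The share of all genes called lower there is not given here. In that comparison DESeq2 called 2 of the 19, against 10.5% of all genes in either direction, and limma called 1, against 7.96%. For siR_Nostrill against siR_Ctrl, edgeR and limma called none of these 13 and 19 genes in either state. DESeq2 called none of them without IFN-γ (2.56% of all genes) and 1 and 3 with it (5.46%). An unadjusted p under 0.05 was reached by 1 and 4 without IFN-γ, against 13.8% of all genes, and by 3 and 6 with it, against 14.5%. Once the length trend was removed, 1 of the 13 was higher and 1 lower with IFN-γ in siR_Ctrl cells (11.1%), 4 higher and 1 lower in siR_Nostrill cells (19.0%), none called with siR_Nostrill without IFN-γ (3.46%) and 3 higher with it (13.0%). The same counts for the 19 genes were 2 higher and 1 lower, 3 higher and 1 lower, 2 higher, and 3 higher and 1 lower.

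Of 7 tested efflux and oxysterol genes, Nr1h2, a liver X receptor, was higher with IFN-γ in siR_Ctrl cells at 0.55 ± 0.11 (adjusted p = 0.0116), with means of 22.9 and 31.9 FPKM, 1 of 7 against 4.71% of all tested genes called higher. When the length trend was removed 1 of the 7 was called higher with IFN-γ in siR_Ctrl cells (11.1% of all genes) and 1 in siR_Nostrill cells (19.0%), and none with siR_Nostrill in either state (3.46% and 13.0%). Of 12 tested fatty acid genes of the SREBP-1 group, edgeR and limma called none with IFN-γ. DESeq2 called 1 with either siRNA (6.33% of all genes in siR_Ctrl and 10.5% in siR_Nostrill cells), and 2 had an unadjusted p under 0.05 in each (14.6% and 21.9%). Fads1, a fatty acid desaturase, was higher with siR_Nostrill averaged over both states at 0.31 ± 0.06 (adjusted p = 0.0334), 1 of 12 against 1.16% of all genes called higher, with means of 56 FPKM in siR_Ctrl, 66.2 in siR_Ctrl + IFN-γ, 73.8 in siR_Nostrill and 78.5 with both. For siR_Nostrill without IFN-γ edgeR and limma called none of the 12, against 0.218% and 0.180% of all genes, DESeq2 called 3, against 2.56%, and 5 had an unadjusted p under 0.05, against 13.8%. After removal of the length trend 7 of the 12 were called higher with siR_Nostrill without IFN-γ, against 3.46% of all tested genes, and 1 with it, against 13.0%. With IFN-γ 4 were called higher in siR_Ctrl cells, against 11.1%, and 2 lower in siR_Nostrill cells, against 19.0%.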

How the data were processed

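The authors sequenced 12 libraries (DNBSEQ, paired reads of 100 bases), filtered reads with SOAPnuke and aligned them to GRCm38.p6 (submitters' processing notes: HISAT2). They deposited for each library an estimated count per gene, not normalized, with FPKM and TPM. The authors' FPKM and TPM are scaled for length and reads, and the sources used here do not name the counting tool.

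Counts were rounded and tested with edgeR 4.0.16 in R 4.3.3 (TMM, filterByExpr, quasi-likelihood test, 12 libraries in 1 fit, Benjamini-Hochberg over 11900 genes, threshold 0.05). Fold changes are from this fit, levels from FPKM. Effective length was recovered from counts and FPKM. Length trends were removed as lowess curves (span 0.3) of each library's deviation. Log2 CPM used a prior count of 2. Fits were tested on simulated data, from which no value is given here. Alternatives were DESeq2 1.42.0, its size factors, limma 3.58.1 on log2(FPKM + 1), other filters, a replicate block and each library left out. Replicates of one group differed beyond sampling noise (chi-square divided by its degrees of freedom was 6.46 to 96.45 over pairs).

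Members and lists were chosen with earlier results of these data known. Full values are given for genes called in any of 7 comparisons, the 3 with the smallest p in each, and the highest and lowest pair by mean FPKM. Of the other lists, at most 4 called genes per comparison are named, and some genes of these lists are not reported here. Further genes were named after their values were seen.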

Additional observations from a re-analysis of the deposited data

How the results depend on the processing

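The number of the 30 genes called is given here in the order IFN-γ in siR_Ctrl cells, IFN-γ in siR_Nostrill cells, siR_Nostrill without and with IFN-γ, the interaction, IFN-γ averaged and siR_Nostrill averaged, and was 5, 1, 0, 0, 0, 5 and 3. DESeq2 gave 8, 2, 9, 2, 0, 9 and 6. Its counts for the averaged comparisons, 9 and 6, were not set against its share of all genes. Removing the length trend gave 15, 3, 10, 2, 0, 13 and 12. Adding the replicate number as a block to that fit, an alternative chosen after seeing the data, gave 17, 6, 17, 5, 8, 17 and 15, while 12.1%, 22.4%, 4.66%, 15.9%, 2.07%, 21.8% and 15.8% of all tested genes were called in that fit. The replicate block alone gave 8, 2, 0, 0, 0, 7 and 2, against 5.41%, 7.92%, 0.151%, 0.269%, 0%, 9.31% and 1.54%. The numbers pair nothing the labels name, since 8 of 18 same-numbered pairs of libraries had a correlation above 0.1 (from -0.495 to 0.725) and 5 of 12 libraries correlated best with their own number. With only the groups compared in the fit, 0 and 4 were called for IFN-γ in siR_Ctrl and siR_Nostrill cells. Limma gave 3 for IFN-γ in siR_Ctrl cells and 1 for siR_Nostrill with IFN-γ with a pseudocount of 1 or 0.1, and also 3 for the former over all genes. Without a filter siR_Nostrill averaged gave 1. Leaving out 1 library at a time gave from 1 to 7, 1 to 2, 0 to 1, 0 to 0, 0 to 0, 2 to 7 and 1 to 3. Size factors and a minimum of 5 CPM moved none of these counts beyond 1.5 times. Of 564 refits of 25 single values, 435 kept their side of the threshold, 29 passed it, 100 fell short of it and 0 changed sign. The causes of these shifts were not tested. At a median of 18153497 reads a library, Ch25h was too low to test, and Abcg1 was tested on 26 to 47 reads in each library.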
